A study of Ogataea parapolymorpha with 8 samples.

Results

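Amino acid permeases and transporters of the methylotrophic, thermotolerant yeast Ogataea parapolymorpha were taken as the genes whose entry in the deposited annotation carries the Pfam domain PF00324 (amino acid permease), PF13520 (the related AA_permease_2 domain) or PF01490 (transmembrane amino acid transporter). The rule found 38 of 5428 annotated genes, among them the homolog of UGA4, the permease for 4-aminobutyrate (GABA) of Saccharomyces cerevisiae. Of these, 37 passed the filter on low counts and could be tested; the remaining gene, OPAR_000051, had only 4 to 11 counts per library.

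Yeasts take up amino acids through permeases that sit in the plasma membrane and import them together with protons, and they move amino acids into and out of the vacuole through a separate family. In S. cerevisiae the permeases differ in range: GAP1 carries nearly any amino acid, others carry a single one or a few, and SSY1 has lost transport and serves as a sensor of external amino acids. There, genes such as GAP1, PUT4, UGA4, the ammonium permease gene MEP2 and the urea permease gene DUR3 are kept low while a preferred nitrogen source is present, and permease proteins are removed from the membrane through ubiquitin.

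RNA from bioreactor cultures was sequenced in 8 libraries, in 4 groups of 2. The labels do not say whether any libraries share a culture. The wild-type strain CBS11895 was grown in chemostats on SM urea medium at a dilution rate of 0.1 per hour and pH 6, with antifoam and 10 mg/L ergosterol. One of these groups is labelled micro-aerobic (20 g/L glucose, 420 mg/L of the detergent Tween 80) and the other aerobic (7.5 g/L glucose, 84 mg/L Tween 80). The mutant strain IMX2167, labelled gut2Δ ndi/ndeΔ for genes that oxidise glycerol 3-phosphate and NADH at the mitochondrion, was grown aerobically on SM medium with 7.5 g/L glucose, with no urea, Tween 80 or ergosterol named. Its groups are a batch at pH 6 and a chemostat at a dilution rate of 0.1 per hour and pH 5. The study asked how the yeast re-oxidises cytosolic NADH when oxygen is limited. Medium, additives and, in the chemostats, pH therefore change together with the strain, glucose and Tween 80 change together with the oxygen label, and pH changes together with the mode of culture of the mutant. In the comparisons between these groups they cannot be told apart.

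Counts in genes ran from 6104949 to 11126081 per library, and 5265 genes could be tested. GUT2 (OPAR_001648) stood at 339.5 to 393 CPM (its count relative to the scaled library total) in the wild type, 94.8 and 111 CPM in the mutant batch, and 27.3 and 29.8 CPM in the mutant chemostat. NDE1 (OPAR_004935), an external NADH dehydrogenase gene, stood at 49.7 to 72.1 CPM in the wild type, 4.55 and 5.34 CPM in the mutant batch and 0.492 and 0.531 CPM in the mutant chemostat. Both targeted genes were thus lower in the mutant but still carried counts, and more in the libraries labelled mutant batch than in those labelled mutant chemostat: GUT2 by 1.85 ± 0.14 and NDE1 by 3.23 ± 0.34 on the log2 scale (edgeR adjusted p = 1.6e-07 and 4.5e-06). GUT2 had 976 and 1084 counts in the batch libraries and 303 and 309 in the chemostat libraries. Both go against the mutant label if the whole gene was deleted. The labels do not say how much of it was, and the mutant groups are called below by their labels. HEM13 (OPAR_004042), a heme synthesis gene that rises at low oxygen in S. cerevisiae, stood at 56.4 and 61.3 CPM in the wild type labelled micro-aerobic and at 1095 and 1202 CPM in the wild type labelled aerobic. This goes against the oxygen labels as that yeast would read them, so each wild-type group is called below by its label, and no direction is read as an effect of oxygen. Replicates lay closest together in the batch (biological coefficient of variation 0.0479) and farthest apart in the mutant chemostat (0.156) and the wild type labelled aerobic (0.153).

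The 38 genes fall into 3 families. In 19 genes, PF00324 or PF13520 comes with the InterPro entry IPR004841 of the amino acid permease domain; these include the homologs of GAP1, DIP5, AGP2, AGP3, PUT4, LYP1, ALP1, SSY1 and of VHC1, a vacuolar cation and chloride cotransporter in S. cerevisiae. Another 8 genes carry PF00324 or PF13520 without that entry, among them the homologs of UGA4, of the methionine permease MUP3 and of the polyamine exporter TPO5. The remaining 11 carry PF01490, the domain of the AVT transporters of the S. cerevisiae vacuole. The annotation gives an S. cerevisiae homolog for 17 of the 38, and for families of close relatives such a homolog does not settle which gene is the counterpart. Names below are those of the homologs, and genes without one keep their annotation number.

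Some features that the rule did not use were also described. Nearly all members, 37 of 38, have a single exon, a share near that of all genes with an mRNA (97.4% against 93.4%). Their proteins are 434 to 1072 residues long, with a median of 546.5. Of the 38, 8 lie within 50 kb of an end of the annotated chromosome (21.1%, against 7.85% of all genes). Another 6 form 3 pairs of direct neighbours on the same strand, described further below. Protein lengths and neighbouring pairs were not set against all genes. No member overlaps another gene by annotated span, so none shares annotated bases with a gene on the other strand. The counting had no strand setting, and whether antisense reads or reads beyond annotated gene ends enter the counts was not tested. Reads shared by close relatives cannot be told apart from the counts alone.

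Compared per length (RPKM, CPM per kilobase of gene, mean over the 4 groups), DIP5 was the most abundant member at 407, followed by AGP2 at 339, GAP1 at 217, OPAR_000987 at 148 and OPAR_003395 at 131. In S. cerevisiae DIP5 imports glutamate and aspartate, and AGP2 governs the uptake of carnitine and polyamines. The first 3 together made up 39.7% to 49.2% of the members' summed CPM in each library. At the other end, OPAR_000051 reached at most 1.33 CPM in any library and OPAR_001963, among the tested genes, at most 2.56 CPM. The summed level of the 38 genes was 3578 ± 63.9 CPM in the wild type labelled micro-aerobic, 4665 ± 232 CPM in the wild type labelled aerobic, 3751 ± 11.8 CPM in the mutant batch and 3268 ± 260.3 CPM in the mutant chemostat (SD, n = 2). This sum stayed within 0.346% to 0.453% of all counts in genes. The wild type labelled aerobic had the highest sum, and OPAR_005410 supplied 551 and 495 CPM of it: without that gene the summed CPM there was 3950.2 and 4335.

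**Figure D1:**
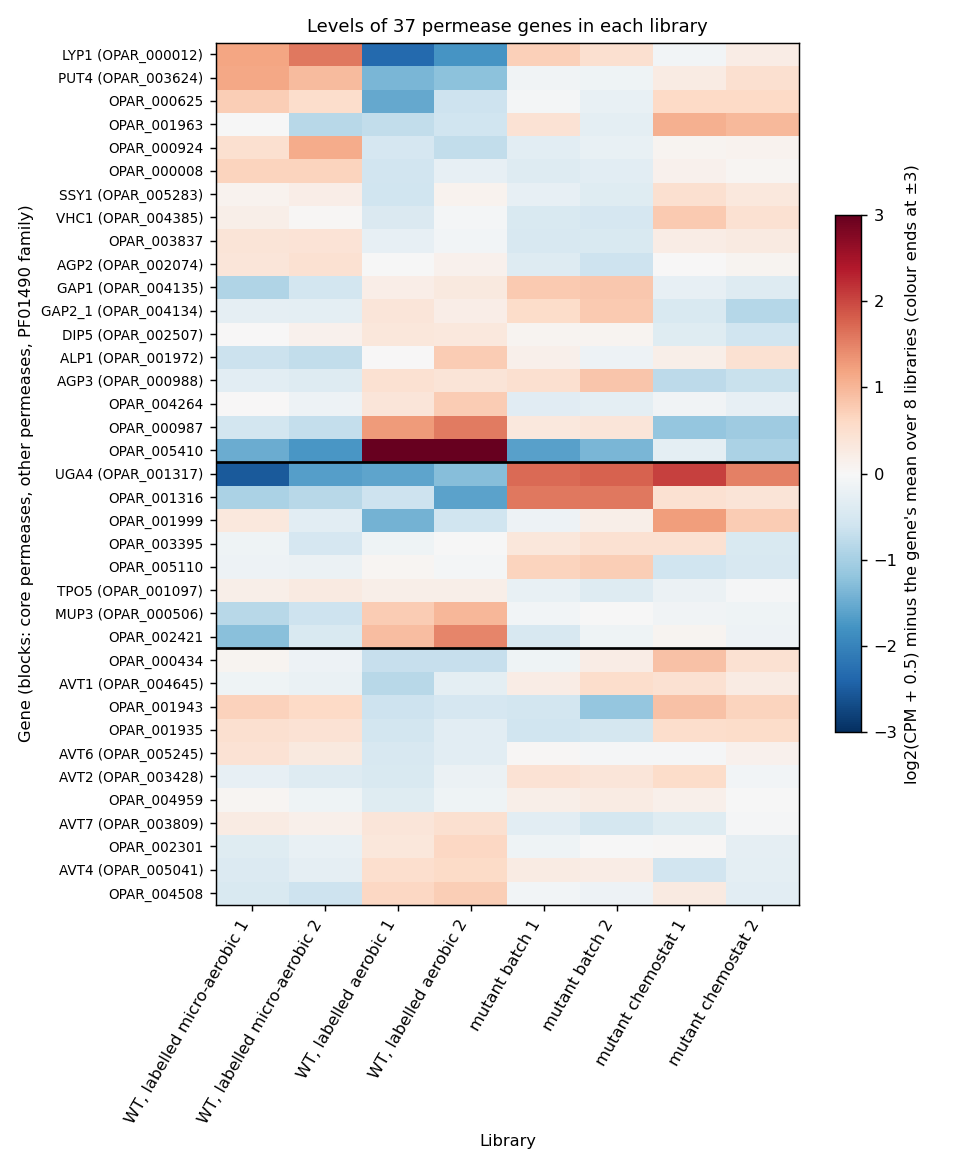
Level of each of the 37 tested genes in each of the 8 libraries (columns, by group), drawn as log2(CPM + 0.5) minus the gene's mean over the libraries. The colour scale thus compares libraries within a gene and not genes with each other. Rows are grouped by family. OPAR_005410 stands out in the wild type labelled aerobic, where it reached 551 and 495 CPM, and UGA4 stands out in the 4 mutant libraries, all between 41.7 and 60.3 CPM.

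Expression of the members differed widely between cultures. A change was called when the adjusted p-value of edgeR's quasi-likelihood test (two-sided, Benjamini-Hochberg over all 5265 genes) was below 0.05, and changes are given as log2 values ± standard error with 2 libraries per group. In the test for any difference among the 4 groups, 36 of 37 members passed, where 78.8% of all genes did. The exception was OPAR_003395, a member with no homolog given, whose libraries of the mutant chemostat stood at 294 and 157 CPM (adjusted p = 0.061). The highest group mean exceeded the lowest by a median of 2.39-fold over the members, with a range of 1.37-fold to 42.3-fold, and by a median of 1.82-fold over all genes tested. No single culture was highest for most of them: 9 members peaked in the wild type labelled micro-aerobic, 11 in the wild type labelled aerobic, 9 in the mutant's batch culture and 8 in its chemostat. In that order these are 24.3%, 29.7%, 24.3% and 21.6% of the members, against 16.9%, 28.7%, 25.8% and 28.6% of all genes tested. Over all genes, too, no culture was highest for most.

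Between the wild-type chemostats, 11 members were higher and 12 lower in the group labelled micro-aerobic (62.2% called). Of all genes, 23.2% were higher and 22.3% lower (45.5% called). PUT4, LYP1, OPAR_000625, OPAR_000924 and OPAR_000008 had the largest rises among members above 10 CPM, and OPAR_005410, OPAR_002421, OPAR_000987, MUP3, OPAR_004508 and GAP1 had the largest falls. The median change was 0.05, against 0.02 for all genes. By family, 6 rose and 7 fell of the 18 tested genes with IPR004841, 1 rose and 2 fell of the 8 without it, and 4 rose and 3 fell of the 11 with PF01490.

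Between the mutant cultures, 8 members were higher and 12 lower in the batch than in the chemostat (54.1% called). Of all genes, 24.5% were higher and 26.8% lower (51.4% called), so the members' share was near that of all genes. The general permease GAP1 and its neighbour, OPAR_000987 and AGP3, OPAR_005110 and AVT4 were among those higher in the batch, and VHC1, OPAR_001935, OPAR_001999, OPAR_003837 and OPAR_005410 among those lower. The median change was -0.15, against -0.02 for all genes. Fewer members were called lower without mutant batch replicate 2, which leaves 1 library in the batch. Whether calls over all genes fell alike is not given here. By family, 5 were higher and 8 lower in the batch of those with IPR004841, 2 higher and 1 lower of those without it, and 1 higher and 3 lower of those with PF01490.

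The mutant chemostat differed from the wild type labelled aerobic in 32 of the 37 members: 18 were higher and 14 lower in the mutant (86.5% called). Of all genes, 31.3% were higher and 29.4% lower (60.7% called). UGA4, LYP1, OPAR_001999, PUT4, OPAR_000625 and OPAR_001943 were higher, and OPAR_005410, OPAR_000987, OPAR_002421, AGP3, MUP3 and AVT4 lower. The median change was 0.31, against 0.03 for all genes. Of the members with IPR004841, 9 were higher and 7 lower, of those without it 3 and 3, and of those with PF01490 6 and 4.

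Against the wild type labelled micro-aerobic, fewer calls were made: 9 members were higher and 6 lower in the mutant (40.5% called). Of all genes, 13.7% were higher and 13.4% lower (27.1% called). UGA4, its neighbour OPAR_001316, OPAR_005410 and OPAR_001999 were higher, and LYP1, OPAR_000924, PUT4 and DIP5 lower. The median change was 0.11, against 0.01 for all genes. These counts rest on few libraries. Fewer members were called without micro-aerobic replicate 1, without micro-aerobic replicate 2 or without mutant chemostat replicate 1, fits that leave 1 library in a group. With upper quartile scaling 12 were higher and 5 lower. The share of all genes called in these runs is not given here, so a general shift cannot be told from one of the members. Of these 15 calls, those of UGA4 and PUT4 were kept under every alternative run. This comparison and the one before share the mutant chemostat libraries, so their values are set side by side below and not counted as separate evidence.

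**Figure D2:**
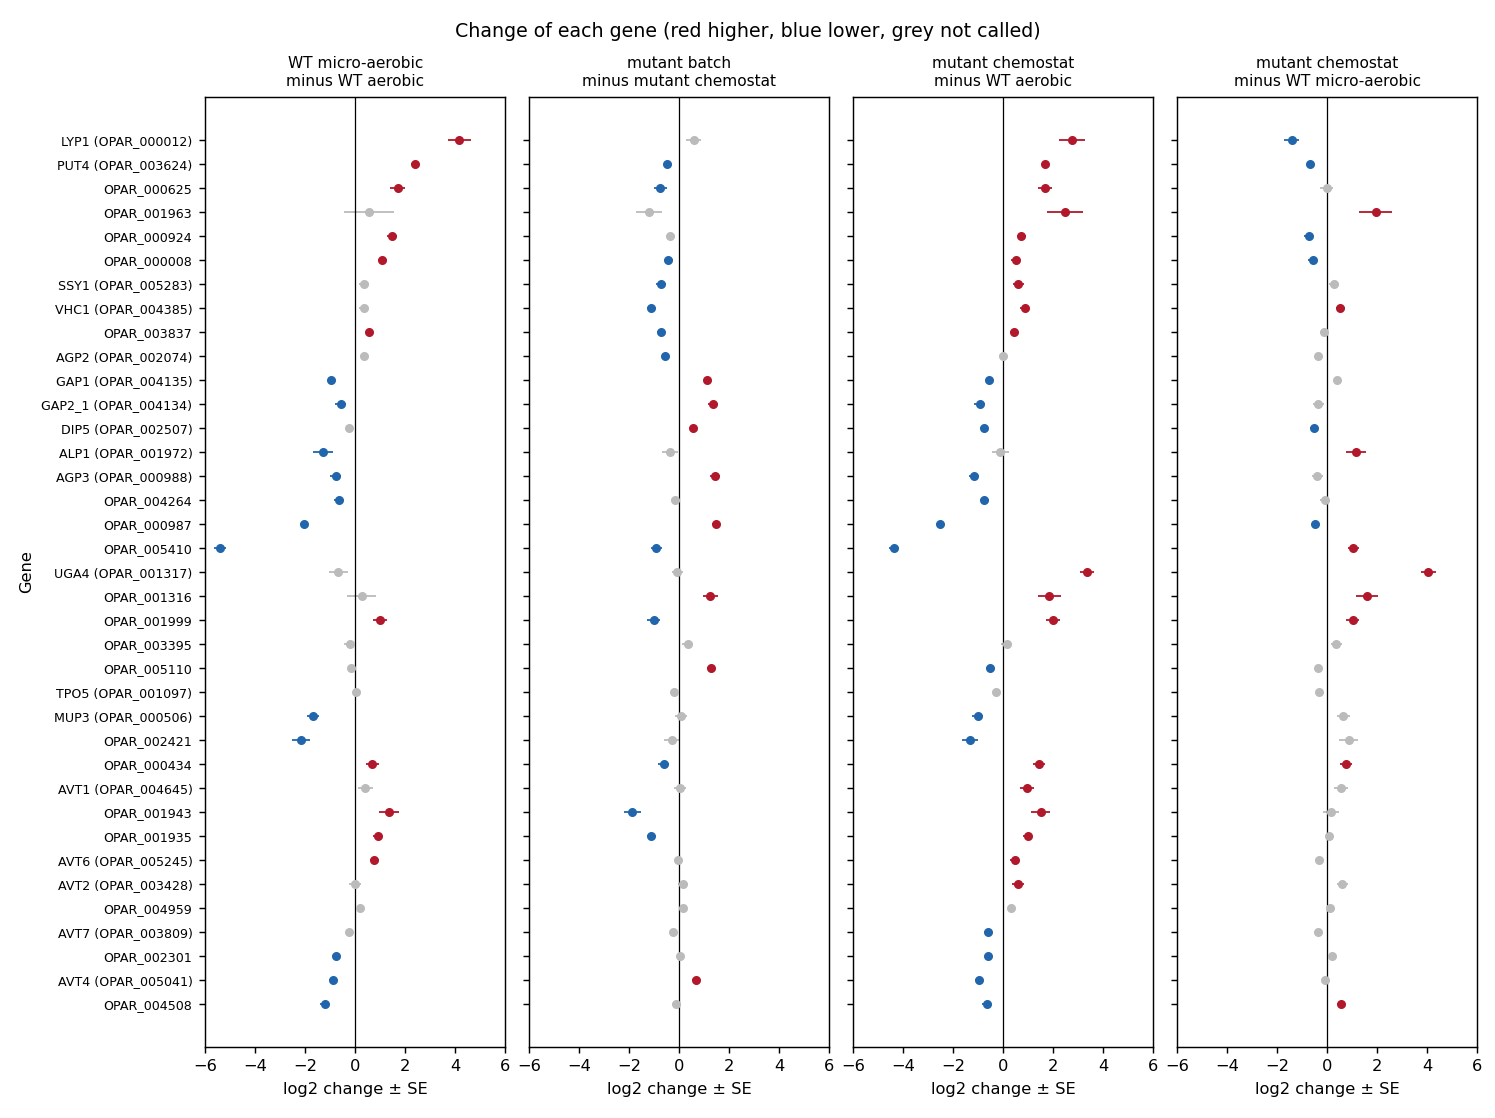
Log2 change of each tested member (rows, by family) in the 4 comparisons (panels), with bars for the standard error. Red points were called higher and blue points lower, with an adjusted p below 0.05 in edgeR's quasi-likelihood test. Grey points were not called. OPAR_005410 lies far to the left in both comparisons with the wild type labelled aerobic (-5.40 and -4.36), and UGA4 far to the right in both comparisons of the mutant chemostat with the wild type (3.35 and 4.03).

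UGA4 (OPAR_001317, Chr_03:201702-203312, plus strand), the GABA permease homolog, separated the strains. Its level was 2.07 and 4.15 CPM in the wild type labelled micro-aerobic, 4.39 and 5.52 CPM in the wild type labelled aerobic, 47.1 and 49.2 CPM in the mutant batch, and 60.3 and 41.7 CPM in the mutant chemostat. All 4 mutant libraries lay above all 4 wild-type libraries, and the mutant cultures overlapped each other. The mutant chemostat exceeded the wild type labelled aerobic by 3.35 ± 0.28 (10.2-fold, edgeR adjusted p = 3.2e-07) and the wild type labelled micro-aerobic by 4.03 ± 0.30 (16.3-fold, adjusted p = 5.6e-07). Neither the wild-type groups (-0.68 ± 0.38, adjusted p = 0.16) nor the mutant cultures (batch minus chemostat -0.08 ± 0.22, adjusted p = 0.78) passed the test.

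The gene just before UGA4 on the same strand, OPAR_001316 (Chr_03:199828-201494), is itself a member with PF13520 and no homolog given, and the gap between them is 207 bp. It stood at 1.28 and 1.44 CPM in the wild type labelled micro-aerobic, 1.72 and 0.631 CPM in the wild type labelled aerobic, 9.77 and 9.71 CPM in the mutant batch, and 4.23 and 3.98 CPM in the mutant chemostat. As with UGA4, every mutant library lay above every wild-type library, but here the batch was also higher than the chemostat, by 1.24 ± 0.31 (edgeR adjusted p = 0.0044). The mutant chemostat exceeded the wild type labelled aerobic by 1.85 ± 0.46 (adjusted p = 0.0036) and the wild type labelled micro-aerobic by 1.59 ± 0.43 (adjusted p = 0.019). The last of these calls was lost without either micro-aerobic replicate (adjusted p = 0.097 and 0.13) and without mutant chemostat replicate 1 (0.081). The genes on either side of the pair, named after their values were seen, differed less: OPAR_001315 was higher in the mutant chemostat than in the wild type labelled aerobic by 0.85 ± 0.16 and OPAR_001318 by 0.86 ± 0.18 (adjusted p = 4.1e-04 and 8.8e-04).

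**Figure D3:**
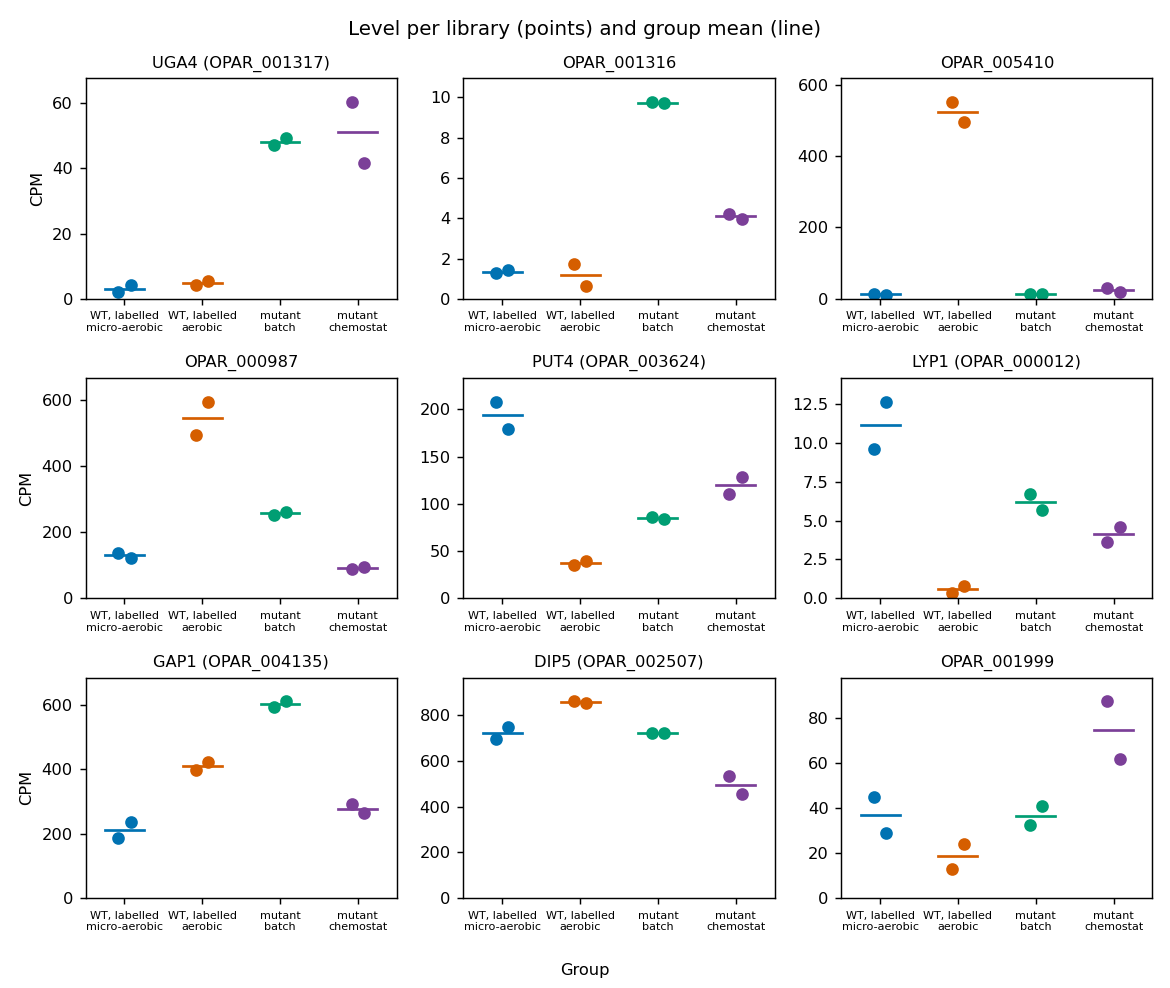
CPM (linear axis from 0) of selected members in the 8 libraries; points are libraries and horizontal lines the means of 2. UGA4 is high in both mutant groups, OPAR_005410 in the wild type labelled aerobic alone, PUT4 in the wild type labelled micro-aerobic, and GAP1 in the mutant batch.

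The genes for the enzymes that use GABA after its uptake had no called change. UGA1, GABA transaminase, stood at 290.5 and 323 CPM in the wild type labelled micro-aerobic, 303 and 280.3 CPM in the wild type labelled aerobic, 341 and 342 CPM in the mutant batch, and 319 and 407 CPM in the mutant chemostat. UGA2, succinate semialdehyde dehydrogenase, ranged from 406 to 585 CPM over the 8 libraries. Neither gene was called in any of the 4 comparisons. UGA3, the transcription factor that acts on these genes in S. cerevisiae, stood at 45.0 and 42.5 CPM in the wild type labelled micro-aerobic, 23.5 and 30.3 CPM in the wild type labelled aerobic, 23.4 and 25.5 CPM in the mutant batch and 56.0 and 40.1 CPM in the mutant chemostat. It was lower in the mutant batch than in the mutant chemostat (-0.97 ± 0.20, edgeR adjusted p = 0.0012), while the UGA4 libraries of those cultures overlapped.

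Among the general and broad-range permeases, GAP1 (OPAR_004135, Chr_06:891123-892853, minus strand), which the annotation names GAP2_2, was highest in the mutant batch. It stood at 186 and 237 CPM in the wild type labelled micro-aerobic, 398 and 423 CPM in the wild type labelled aerobic, 594 and 612 CPM in the mutant batch and 293 and 264 CPM in the mutant chemostat. The 4 groups did not overlap. The batch exceeded the mutant chemostat by 1.11 ± 0.14 (edgeR adjusted p = 2.5e-05), the wild type labelled micro-aerobic was below the one labelled aerobic (-0.96 ± 0.14, adjusted p = 1.0e-04), and the mutant chemostat was below the wild type labelled aerobic (-0.56 ± 0.14, adjusted p = 0.0039). Its neighbour GAP2_1 (OPAR_004134, Chr_06:888947-890689), 433 bp away on the same strand, stood at 17.1 and 16.9 CPM, 26.9 and 24.0 CPM, 30.8 and 36.0 CPM, and 15.1 and 11.3 CPM in the same order of groups. It too was highest in the batch, where it exceeded the mutant chemostat by 1.35 ± 0.21 (adjusted p = 1.2e-04). Its lower level in the wild type labelled micro-aerobic (-0.58 ± 0.22, adjusted p = 0.042) was not called with upper quartile scaling (adjusted p = 0.088). This call was also lost with only the 4 libraries of the 2 groups (0.0503) and with the wild-type replicate numbers as a block (0.054). Leaving out either micro-aerobic replicate or aerobic replicate 1 lost it as well.

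A second pair on Chr_02 lies 265 bp apart on the minus strand: OPAR_000987 (632183 to 633920) and the AGP3 homolog OPAR_000988 (634186 to 635811), a low-affinity permease in S. cerevisiae. OPAR_000987 stood at 138 and 123 CPM in the wild type labelled micro-aerobic, 496 and 596 CPM in the wild type labelled aerobic, 253 and 262 CPM in the mutant batch, and 90.3 and 96.4 CPM in the mutant chemostat. The groups did not overlap, with the wild type labelled aerobic on top. It was lower in the wild type labelled micro-aerobic (-2.06 ± 0.14, edgeR adjusted p = 3.7e-08) and in the mutant chemostat (-2.55 ± 0.14, adjusted p = 3.9e-09) than in the wild type labelled aerobic, and higher in the batch than in the mutant chemostat (1.47 ± 0.14, adjusted p = 1.5e-06). AGP3 moved in the same directions at a lower level, with 17.2 and 16.4 CPM, 29.9 and 28.1 CPM, 30.2 and 38.6 CPM, and 12.2 and 13.4 CPM in the same order. Here the batch libraries lay level with or above those of the wild type labelled aerobic, and the batch exceeded the mutant chemostat by 1.43 ± 0.20 (adjusted p = 4.9e-05). Its fall in the wild type labelled micro-aerobic (-0.78 ± 0.21, adjusted p = 0.0071) was lost without micro-aerobic replicate 2 (adjusted p = 0.054).

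The members of each pair kept different proportions. Per length, GAP1 stood above GAP2_1 by 10.96-fold to 23.5-fold over the 8 libraries. OPAR_000987 stood above AGP3 by 15.5-fold and 19.8-fold in the wild type labelled aerobic and by 6.36-fold to 7.84-fold in the other 6 libraries. UGA4 stood above OPAR_001316 by 4.98-fold and 5.25-fold in the mutant batch and by 14.8-fold and 10.8-fold in the mutant chemostat. In the wild type that last ratio ran from 1.68 to 9.05 and rests on 4 to 9 counts per library of OPAR_001316.

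**Figure D4:**
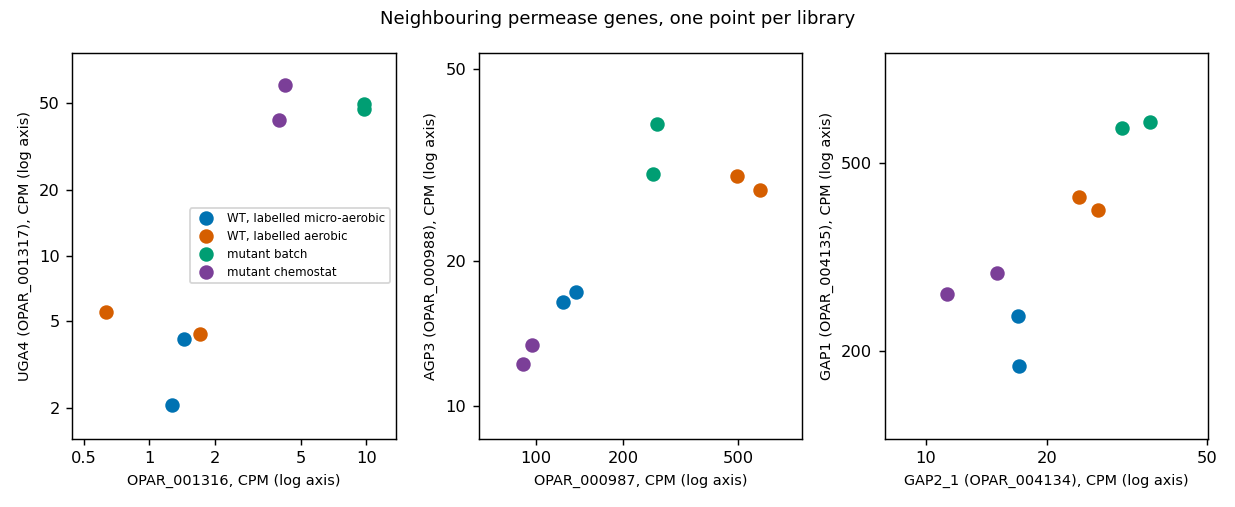
Levels of both genes in each of the 3 neighbouring pairs (CPM, log axes), with a point for each library coloured by group. UGA4 and OPAR_001316 are both higher in the 4 mutant libraries, OPAR_000987 reaches 496 and 596 CPM in the wild type labelled aerobic, and both GAP genes are highest in the batch.

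DIP5 (OPAR_002507, Chr_04:902283-903998), the most abundant member, stood at 694 and 748 CPM in the wild type labelled micro-aerobic, 861 and 853 CPM in the wild type labelled aerobic, 722 and 721 CPM in the mutant batch, and 536 and 454 CPM in the mutant chemostat. The mutant chemostat was the lowest group, below the wild type labelled aerobic (-0.79 ± 0.13, edgeR adjusted p = 2.1e-04), and the batch was above it (0.54 ± 0.13, adjusted p = 0.0041). AGP2 (OPAR_002074, Chr_04:176727-178502) stood at 753 and 799 CPM, 582 and 643 CPM, 445 and 380.1 CPM, and 586 and 623 CPM in the same order. The batch was its lowest group. It was below the mutant chemostat (-0.55 ± 0.14, adjusted p = 0.0041), a call lost without mutant batch replicate 2 (adjusted p = 0.11), and AGP2 was not called between the wild-type groups or between the mutant chemostat and either of them.

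Of the permeases with a narrow range in S. cerevisiae, the proline permease homolog PUT4 (OPAR_003624, Chr_06:88969-90627) and the lysine permease homolog LYP1 (OPAR_000012, Chr_01:22338-23936) were lowest in the wild type labelled aerobic. PUT4 stood at 208 and 179 CPM in the wild type labelled micro-aerobic, 35.3 and 39.3 CPM in the wild type labelled aerobic, 86.4 and 84.3 CPM in the mutant batch, and 110.4 and 129 CPM in the mutant chemostat. The 4 groups were fully separated. The wild type labelled micro-aerobic exceeded the one labelled aerobic by 2.37 ± 0.15 (edgeR adjusted p = 1.6e-08), the mutant chemostat exceeded the latter by 1.68 ± 0.15 (adjusted p = 5.0e-07) and was below the former (-0.70 ± 0.14, adjusted p = 0.0035). The batch was below the mutant chemostat (-0.49 ± 0.14, adjusted p = 0.0097), a call lost without either batch library (adjusted p = 0.076 and 0.095).

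The proline genes beside it gave a mixed picture. PUT1, which starts the breakdown of proline, stood at 26.5 and 23.3 CPM in the wild type labelled micro-aerobic and 37.9 and 37.7 CPM in the one labelled aerobic. It was thus lower in the former (-0.60 ± 0.20, edgeR adjusted p = 0.022). Whether this call was kept under the alternative runs was not examined. The levels of PUT1 were 24.5 and 27.8 CPM in the mutant batch and 38.9 and 29.9 CPM in the mutant chemostat. PUT2, which completes the breakdown of proline, stood at 64.6 and 51.4 CPM in the wild type labelled micro-aerobic, 80.1 and 109.5 CPM in the wild type labelled aerobic, 52.8 and 57.2 CPM in the mutant batch, and 159.6 and 129 CPM in the mutant chemostat. PUT2 was thus lower where PUT4 was highest (-0.71 in the wild type labelled micro-aerobic against the one labelled aerobic), a call lost without micro-aerobic replicate 2 (adjusted p = 0.080) or aerobic replicate 2 (0.062). PUT3, the transcription factor for proline use in S. cerevisiae, rose in that comparison (0.85 ± 0.23), and this was lost without micro-aerobic replicate 1 (0.063) or aerobic replicate 1 (0.066). In the mutant chemostat PUT3 was above the wild type labelled aerobic by 1.46 ± 0.22, and PUT2 was above the batch (batch minus chemostat -1.39 ± 0.18) and the wild type labelled micro-aerobic (1.31 ± 0.18).

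LYP1 stood at 9.57 and 12.6 CPM in the wild type labelled micro-aerobic, 0.381 and 0.789 CPM in the wild type labelled aerobic, 6.71 and 5.69 CPM in the mutant batch, and 3.64 and 4.60 CPM in the mutant chemostat. The low pair rests on 2 and 5 counts. The wild type labelled micro-aerobic exceeded it by 4.17 ± 0.47 (edgeR adjusted p = 6.7e-06) and the mutant chemostat by 2.75 ± 0.51 (adjusted p = 4.3e-04). The mutant chemostat was below the wild type labelled micro-aerobic (-1.42 ± 0.31, adjusted p = 0.0060), which was lost without micro-aerobic replicate 2 (adjusted p = 0.097) or mutant chemostat replicate 1 (0.051).

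MUP3 (OPAR_000506, Chr_01:827273-828904), homolog of a low-affinity methionine permease, had the opposite pattern to PUT4 and LYP1 in the wild type. It stood at 6.38 and 7.51 CPM in the group labelled micro-aerobic, 20.4 and 23.8 CPM in the group labelled aerobic, 11.02 and 11.7 CPM in the mutant batch, and 10.9 and 10.8 CPM in the mutant chemostat. Both the wild type labelled micro-aerobic (-1.67 ± 0.24, edgeR adjusted p = 7.9e-05) and the mutant chemostat (-1.03 ± 0.22, adjusted p = 0.0013) were below the wild type labelled aerobic. ALP1, homolog of an arginine permease, ranged from 2.56 to 8.05 CPM over the 8 libraries.

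The sensor homolog SSY1 (OPAR_005283) ranged from 27.7 to 59.5 CPM and was highest in the mutant chemostat, at 59.5 and 52.8 CPM. It was above the batch there (batch minus chemostat -0.72 ± 0.20, edgeR adjusted p = 0.0096) and above the wild type labelled aerobic (0.60 ± 0.21, adjusted p = 0.022). The first call was lost without mutant batch replicate 2 (0.078) or mutant chemostat replicate 1 (0.053), and the second without aerobic replicate 1 (0.19) or mutant chemostat replicate 1 (0.10). The cotransporter homolog VHC1 (OPAR_004385, Chr_06:1306775-1309993), which carries ions and not amino acids in S. cerevisiae, stood at 48.0 and 43.6 CPM in the wild type labelled micro-aerobic, 31.5 and 41.0 CPM in the wild type labelled aerobic, 30.7 and 29.6 CPM in the mutant batch, and 72.9 and 58.5 CPM in the mutant chemostat. It too was highest in the mutant chemostat, above the batch (batch minus chemostat -1.12 ± 0.18, adjusted p = 1.6e-04) and the wild type labelled aerobic (0.85 ± 0.18, adjusted p = 0.0012). The polyamine transporter homolog TPO5 ranged from 50.2 to 78.7 CPM and was called in none of the 4 comparisons.

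The largest change of all members belonged to OPAR_005410, a gene with IPR004841 and no homolog given, which is the last annotated gene on Chr_07 (1512872 to 1514371, plus strand). It stood at 13.6 and 11.2 CPM in the wild type labelled micro-aerobic, 551 and 495 CPM in the wild type labelled aerobic, 12.2 and 14.8 CPM in the mutant batch, and 31.4 and 19.7 CPM in the mutant chemostat. The wild type labelled aerobic stood apart from the other 6 libraries. The group labelled micro-aerobic was below it by a log2 change of -5.40 ± 0.23 (42.2-fold, edgeR adjusted p = 2.3e-10) and the mutant chemostat by -4.36 ± 0.21 (20.5-fold, adjusted p = 7.4e-10). The batch was also below the mutant chemostat (-0.91 ± 0.21, adjusted p = 0.0026). The higher level in the mutant chemostat than in the wild type labelled micro-aerobic (1.04 ± 0.22, adjusted p = 0.0059) was lost without micro-aerobic replicate 2 (0.0997) or mutant chemostat replicate 1 (0.060). The next gene inwards, OPAR_005409, named after its values were seen, stood at 11.49 and 15.7 CPM in the wild type labelled micro-aerobic and 28.2 and 23.5 CPM in the wild type labelled aerobic, a change of -0.93 ± 0.24 (adjusted p = 0.0066).

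Several other members without a homolog were, like PUT4, higher in the wild type labelled micro-aerobic than in the one labelled aerobic. OPAR_000625, 21.7 kb from the start of Chr_02, stood at 22.2 and 19.2 CPM in the wild type labelled micro-aerobic, 4.20 and 8.36 CPM in the wild type labelled aerobic, 12.7 and 11.3 CPM in the mutant batch, and 20.2 and 20.3 CPM in the mutant chemostat. It was above the wild type labelled aerobic by 1.69 ± 0.29 in the group labelled micro-aerobic and by 1.66 ± 0.28 in the mutant chemostat (edgeR adjusted p = 3.1e-04 and 2.2e-04). OPAR_000924 stood at 125 and 195 CPM, 63.1 and 53.0 CPM, 71.9 and 76.2 CPM, and 94.9 and 96.0 CPM in the same order, with a rise of 1.47 ± 0.19 in the wild type labelled micro-aerobic (adjusted p = 2.5e-05). OPAR_000008, 14.1 kb from the start of Chr_01, stood at 47.4 and 46.6 CPM, 19.6 and 24.8 CPM, 22.5 and 23.4 CPM, and 32.0 and 30.6 CPM, with a rise of 1.08 ± 0.18 (adjusted p = 3.2e-04). For OPAR_000008 the wild type labelled aerobic overlapped the mutant batch. For both OPAR_000924 and OPAR_000008 the group labelled micro-aerobic was the highest and did not overlap any other.

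OPAR_001999, a gene without IPR004841, was highest in the mutant chemostat. It stood at 45.0 and 28.9 CPM in the wild type labelled micro-aerobic, 13.2 and 23.8 CPM in the wild type labelled aerobic, 32.4 and 40.8 CPM in the mutant batch, and 87.4 and 61.8 CPM in the mutant chemostat. The mutant chemostat exceeded the wild type labelled aerobic by 1.996 ± 0.28 (edgeR adjusted p = 4.6e-05). Its other calls did not hold without every library. The rise of 0.98 ± 0.29 in the wild type labelled micro-aerobic (adjusted p = 0.014) was lost without micro-aerobic replicate 1 or aerobic replicate 1. The batch's lower level (-1.02 ± 0.26, adjusted p = 0.0050) was lost without mutant chemostat replicate 1. The mutant chemostat's rise over the wild type labelled micro-aerobic (1.01 ± 0.27, adjusted p = 0.016) was lost without micro-aerobic replicate 2 or mutant chemostat replicate 1. OPAR_005110 was instead highest in the batch, at 123 and 128 CPM against 50.4 and 54.6 CPM in the mutant chemostat, a difference of 1.26 ± 0.13 (adjusted p = 3.8e-06), and the wild-type libraries lay between, at 68.0 to 79.9 CPM. OPAR_002421 stood at 11.1 and 16.3 CPM in the wild type labelled aerobic and at 2.07 to 6.00 CPM in the other 6 libraries, and was lower in the wild type labelled micro-aerobic (-2.17 ± 0.37, adjusted p = 3.1e-04) and in the mutant chemostat (-1.32 ± 0.32, adjusted p = 0.0031).

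The 8 members near chromosome ends, which include LYP1, OPAR_000008, OPAR_000625 and OPAR_005410, did not move one way. Between the wild-type groups 4 were higher and 3 lower in the one labelled micro-aerobic (87.5% called, against 45.5% of all genes). In the mutant chemostat 5 were higher and 2 lower than in the wild type labelled aerobic (87.5% against 60.7%), and 4 were higher and 2 lower than in the one labelled micro-aerobic (75% against 27.1%). None of these calls against the one labelled micro-aerobic was kept under every alternative run. In the batch 4 were lower than in the mutant chemostat (50% against 51.4%). No call was made there in the other direction.

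Of the 11 genes with PF01490, 2 passed both the test and a 2-fold change between the wild-type groups (18.2%, against 16.8% of all genes), 2 between the mutant cultures (18.2% against 17.3%), and 2 between the mutant chemostat and the wild type labelled aerobic (18.2% against 25.1%). None did between the mutant chemostat and the wild type labelled micro-aerobic (5.01% of all genes). These shares with the 2-fold limit were near or below those of all genes. By the test alone, 63.6% were called between the wild-type groups (45.5% of all genes) and 36.4% between the mutant cultures (51.4%). For the mutant chemostat, 90.9% were called against the wild type labelled aerobic (60.7%) and 18.2% against the one labelled micro-aerobic (27.1%). In S. cerevisiae, AVT1 fills the vacuole with neutral amino acids, while AVT4, AVT6 and AVT7 let amino acids out. AVT4 (OPAR_005041, Chr_07:891135-893133) stood at 61.9 and 68.5 CPM in the wild type labelled micro-aerobic, 117 and 124 CPM in the wild type labelled aerobic, 98.3 and 96.8 CPM in the mutant batch, and 55.9 and 67.2 CPM in the mutant chemostat. The wild type labelled aerobic was the highest group and the batch came second. AVT4 was lower in the wild type labelled micro-aerobic (-0.89 ± 0.14, edgeR adjusted p = 1.8e-04) and in the mutant chemostat (-0.97 ± 0.14, adjusted p = 5.2e-05) than in the wild type labelled aerobic, and higher in the batch than in the mutant chemostat (0.66 ± 0.14, adjusted p = 0.0013). AVT6 (OPAR_005245) had the opposite order in the wild type, with 43.2 and 39.0 CPM in the group labelled micro-aerobic and 22.7 and 25.4 CPM in the group labelled aerobic (0.77 ± 0.18, adjusted p = 0.0033). The homologs of AVT1, AVT2 and AVT7 were each called in 1 comparison, that of the mutant chemostat with the wild type labelled aerobic. AVT1 (0.94 ± 0.28) and AVT2 (0.58) were higher in the mutant and AVT7 (-0.62) was lower. The call of AVT1 was lost without aerobic replicate 1. That of AVT2 was lost with only the 4 libraries of the 2 groups (adjusted p = 0.061), without aerobic replicate 1 or without mutant chemostat replicate 1.

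Among the PF01490 genes without a homolog, OPAR_001935 (Chr_03:1223729-1225309) and OPAR_001943 (Chr_03:1235340-1236947) were high and low in the same cultures. OPAR_001935 stood at 45.3 and 44.1 CPM in the wild type labelled micro-aerobic, 21.7 and 25.9 CPM in the wild type labelled aerobic, 21.3 and 22.2 CPM in the mutant batch, and 46.6 and 47.5 CPM in the mutant chemostat. It was lower in the batch than in the mutant chemostat (-1.11 ± 0.17, edgeR adjusted p = 1.1e-04), and above the wild type labelled aerobic in the group labelled micro-aerobic (0.90 ± 0.18, adjusted p = 8.7e-04) and in the mutant chemostat (0.98 ± 0.17, adjusted p = 2.9e-04). OPAR_001943 stood at 6.38 and 5.91 CPM, 2.29 and 2.53 CPM, 2.39 and 1.399 CPM, and 7.38 and 6.28 CPM in the same order. OPAR_004508 showed the reverse in the wild type, at 111.5 and 101 CPM in the group labelled micro-aerobic and 237 and 257 CPM in the group labelled aerobic (-1.22 ± 0.17, adjusted p = 6.9e-05). Its mutant chemostat libraries, at 187 and 124 CPM, lay on either side of the batch. OPAR_000434 stood at 15.2 and 12.9 CPM in the wild type labelled micro-aerobic, 8.77 and 8.68 CPM in the wild type labelled aerobic, 13.2 and 17.0 CPM in the mutant batch, and 27.0 and 19.9 CPM in the mutant chemostat. It was highest in the mutant chemostat, above the wild type labelled aerobic (1.42 ± 0.25, adjusted p = 2.9e-04) and the one labelled micro-aerobic (0.74, adjusted p = 0.036). The latter call was lost with only the 4 libraries of the 2 groups (adjusted p = 0.051), without either micro-aerobic replicate or without chemostat replicate 1.

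Among nitrogen transporters of other families, the homologs of the urea and ammonium permeases had large changes. DUR3 (OPAR_002760), the urea permease homolog, stood at 407 and 448 CPM in the wild type labelled micro-aerobic, 1082 and 1306 CPM in the wild type labelled aerobic, 29.7 and 30.96 CPM in the mutant batch, and 42.5 and 50.6 CPM in the mutant chemostat. It was thus high in the cultures on urea medium and low in those where no urea is named (mutant chemostat minus wild type labelled aerobic -4.68 ± 0.17, edgeR adjusted p = 5.0e-11). MEP2 (OPAR_002601), the ammonium permease homolog, stood at 58.4 and 76.0 CPM, 1092 and 1102 CPM, 2609.7 and 2584 CPM, and 1061 and 1079.99 CPM in the same order. Its lowest group was the wild type labelled micro-aerobic and its highest the batch, which was also the highest group of GAP1. Whether medium, strain or the other differences go with these levels cannot be told apart.

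In this list 19 of 24 symbols were found. In the wild type labelled micro-aerobic 4 were higher and 8 lower (63.2% called, against 45.5% of all genes), and in the batch 6 were higher and 4 lower than in the mutant chemostat (52.6% against 51.4%). In the mutant chemostat 7 were higher and 6 lower than in the wild type labelled aerobic (68.4% against 60.7%), and 4 were higher and 1 lower than in the one labelled micro-aerobic (26.3% against 27.1%). The last 3 shares were near those of all genes. The allantoin permease homolog DAL4 was lower in the wild type labelled micro-aerobic than in the one labelled aerobic (-1.78 ± 0.15), and higher in the mutant chemostat than in the former (2.01 ± 0.15) and in the batch than in the chemostat (1.35 ± 0.13). YCT1, homolog of a cysteine transporter, was above the wild type labelled aerobic in the group labelled micro-aerobic (1.75 ± 0.28) and in the mutant chemostat (1.57 ± 0.28). MEP3, another ammonium permease homolog, was above the wild type labelled micro-aerobic in the mutant chemostat (1.64 ± 0.17), and the peptide transporter homolog OPT2 was below the wild type labelled aerobic there (-1.11 ± 0.15). Calls for vacuolar transporter homologs were weaker. VBA2 (1.35 ± 0.40) in the batch against the chemostat was lost without either batch replicate or chemostat replicate 1 (adjusted p 0.064 to 0.067), VBA1 (-0.76 ± 0.21) without batch replicate 1 (0.073), and YPQ2 (2.05 ± 0.61, mutant chemostat against the wild type labelled aerobic) without aerobic replicate 1 (0.069) or chemostat replicate 1 (0.063).

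Of the genes that sense amino acids and regulate nitrogen use, 16 of 23 symbols were found, and their calls lay near the share of all genes in 2 of the comparisons. In the wild type labelled micro-aerobic 6 were higher and 1 lower (43.8% called, against 45.5% of all genes), and in the batch 1 was higher and 7 lower than in the mutant chemostat (50% against 51.4%). The mutant chemostat had 5 higher and 3 lower against the wild type labelled aerobic (50% against 60.7%), and 3 higher and 4 lower against the one labelled micro-aerobic (43.8% against 27.1%). GCN4, the activator of amino acid synthesis genes in S. cerevisiae, was lower in the mutant chemostat than in the wild type labelled micro-aerobic (-1.01 ± 0.15). URE2, a repressor of nitrogen catabolic genes there, was higher in the mutant chemostat than in the wild type labelled aerobic (0.95 ± 0.12), as were UGA3 (0.83 ± 0.20) and its partner DAL81 (1.05 ± 0.20). NPR3 (-0.97 ± 0.21), of a complex that restrains TORC1, and SSY5 (-0.78 ± 0.16), the protease that acts after SSY1 in S. cerevisiae, were lower in the batch than in the mutant chemostat.

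The other large calls in this list each depended on single libraries. Against the wild type labelled micro-aerobic, DAL81 (0.74 ± 0.20), GTR1 (-0.73 ± 0.21) and NPR2 (-0.72 ± 0.20) in the mutant chemostat were lost without micro-aerobic replicate 1 (adjusted p 0.065 to 0.076), micro-aerobic replicate 2 (0.15 to 0.19) or chemostat replicate 1 (0.11 to 0.17). DAL81 in the batch against the chemostat (-0.62 ± 0.19) was lost without either batch replicate (0.13 and 0.060) or chemostat replicate 1 (0.086). Between the wild-type groups, UGA3 (0.70 ± 0.21), LEU3 (0.67 ± 0.19) and ARO80 (0.50 ± 0.19) were lost without micro-aerobic replicate 1 (0.083, 0.090 and 0.33) or aerobic replicate 1 (0.097, 0.068 and 0.26).

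For the folding, ubiquitination and trafficking of permeases, 12 of 22 symbols were found. Of these, 4 were higher and 1 lower in the wild type labelled micro-aerobic (41.7% called, against 45.5% of all genes), and 2 were higher and 5 lower in the batch than in the mutant chemostat (58.3% against 51.4%). In the mutant chemostat 6 were higher and 2 lower than in the wild type labelled aerobic (66.7% against 60.7%), and 1 was higher and 1 lower than in the one labelled micro-aerobic (16.7% against 27.1%). All 4 shares were near or below those of all genes. BUL2 (OPAR_005328), an adaptor that brings permeases to the ubiquitin ligase RSP5 in S. cerevisiae, stood at 199 and 208 CPM in the wild type labelled micro-aerobic, 47.5 and 46.2 CPM in the wild type labelled aerobic, 42.2 and 37.8 CPM in the mutant batch, and 159 and 205 CPM in the mutant chemostat. It was high in the groups in which GAP1 was low and low in those in which GAP1 was high. The changes of BUL2 were 2.12 ± 0.15 between the wild-type groups, -2.19 ± 0.15 between batch and mutant chemostat, and 1.96 ± 0.15 between the mutant chemostat and the wild type labelled aerobic. Other members, such as PUT4 and OPAR_001935, changed in the same direction as BUL2 in these comparisons. A link between BUL2 and the level of any member was not tested. NPR1, a kinase that protects GAP1 from removal in S. cerevisiae, stood at 130.5 and 140.3 CPM in the batch and at 33.8 to 76.2 CPM in the other 6 libraries. LDB19 (-0.91 ± 0.20) and SSH4 (-0.80 ± 0.19), which also act with RSP5 in S. cerevisiae, were lower in the batch than in the mutant chemostat, the latter call being lost without batch replicate 2 (adjusted p = 0.062). ROD1 (0.70 ± 0.18) and ECM21 (0.76 ± 0.20), arrestin-related adaptors, were higher in the mutant chemostat than in the wild type labelled aerobic, the call of ECM21 being lost without aerobic replicate 1 (0.056). Between the wild-type groups ECM21 (0.61 ± 0.20) was lost without micro-aerobic replicate 1 (0.19) or aerobic replicate 1 (0.21), and EAR1 (-0.47 ± 0.15) without either micro-aerobic replicate (0.12 and 0.078) or aerobic replicate 1 (0.090). Against the wild type labelled micro-aerobic, RSP5 (-0.58 ± 0.15) was lost without micro-aerobic replicate 2 (0.21) or chemostat replicate 1 (0.11), and LDB19 (0.62 ± 0.20) without either micro-aerobic replicate (0.11 and 0.25) or chemostat replicate 1 (0.26).

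Of the genes for the use of GABA and other amino acids as nitrogen source, 17 of 22 symbols were found. In the wild type labelled micro-aerobic 5 were higher and 4 lower (52.9% called, against 45.5% of all genes), and in the batch 7 were higher and 5 lower than in the mutant chemostat (70.6% against 51.4%). In the mutant chemostat 8 were higher and 4 lower than in the wild type labelled aerobic (70.6% against 60.7%), and 4 were higher and 5 lower than in the one labelled micro-aerobic (52.9% against 27.1%). BAT2, a branched-chain aminotransferase, was higher in the batch than in the mutant chemostat (2.58 ± 0.16), as were the glutamate dehydrogenase GDH1 (1.68 ± 0.15) and GCV2 (1.69 ± 0.16) of the glycine cleavage system. BAT2 was lower in the mutant chemostat than in the wild type labelled aerobic (-1.97 ± 0.15) and the one labelled micro-aerobic (-1.14 ± 0.15), and in the latter than in the former (-0.83 ± 0.15). The glutamate synthase GLT1 was higher in the mutant chemostat than in both wild-type groups, by 2.31 ± 0.17 against the one labelled aerobic and 1.62 ± 0.17 against the one labelled micro-aerobic. The glutamate-degrading dehydrogenase GDH2 was also higher there, by 1.48 ± 0.15 and 1.18 ± 0.15. In the wild type labelled micro-aerobic the aromatic aminotransferase ARO8 (1.19 ± 0.13) and GCV3 (1.13 ± 0.19) were higher than in the one labelled aerobic. The arginase CAR1 was higher in the mutant chemostat than in the wild type labelled aerobic (1.24 ± 0.27), while its call between the wild-type groups (0.74 ± 0.27) was lost without micro-aerobic replicate 1 (adjusted p = 0.36) or either aerobic replicate (0.18 and 0.075).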

How the data were processed

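The authors deposited counts of read pairs per gene, without normalization; per the file headers they came from featureCounts on gene features, over pairs with both ends mapped and no chimera, without a strand setting. Tools named in the submitters' processing notes are edgeR 3.28.1, featureCounts 1.6.0, SAMtools 1.3.1 and Bowtie 1.2.1.1. Coordinates are those of the deposited annotation of strain DL-1; no source used here gives its genome build. The 4 further library columns of the count table and the values of the authors' tables of comparisons were not used here. Protein identity and promoter motifs were not analysed here.

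Counts were tested with edgeR 4.0.16 (R 4.3.3): filterByExpr kept 5265 genes, TMM gave scaling factors of 0.859 to 1.12, and a mean per group was fitted over all 8 libraries, with 4 residual degrees of freedom and a common biological coefficient of variation of 0.118. Two-sided quasi-likelihood F tests were adjusted by Benjamini-Hochberg over all genes at 0.05, and the standard error is the change divided by the root of F. CPM use TMM-scaled library sizes; RPKM divide them by the gene length in the count table. A count of 3 corresponds to 0.262 to 0.572 CPM. The tests were checked on simulated data. There a gene had the same spread in every group, so the check does not cover groups that differ in spread. Alternatives were other scalings, no filter, genes without overlap, fits on 4 libraries, DESeq2 1.42.0, replicate blocks and leaving out each library.

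The rule for named genes covers UGA4, members with a gene name in the annotation, the 5 highest by RPKM, and per comparison the 6 largest called rises and falls with at least 10 CPM in a group and no overlap; per gene list, the 4 largest called changes per comparison. Further members, HEM13, the neighbouring genes and UGA1, UGA2, UGA3 and PUT1 were chosen after their values were seen. The members and lists were chosen with earlier results of these data known. Symbols come from the annotation's S. cerevisiae homologs and general knowledge; all 36 members with a locus tag were found in RefSeq's gene table (assembly Hansenula_2), from which no coordinates were taken. The replicates are called biological, with no word on separate cultures, and the p-values cover the spread between these libraries, which may be technical.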

Additional observations from a re-analysis of the deposited data

How the results depend on the processing

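Of 90 calls of members over the 4 comparisons, 55 were kept under every alternative and none reversed: 15 of 23 between the wild-type groups, 13 of 20 between the mutant cultures, 25 of 32 against the wild type labelled aerobic and 2 of 15 against the one labelled micro-aerobic. DESeq2 kept 83 of 89. Upper quartile scaling moved the median change of all genes to 0.12 between the wild-type groups and 0.21 between the mutant chemostat and the wild type labelled aerobic. Leaving out 1 library at a time gave 8 to 12 higher and 8 to 12 lower members between the wild-type groups, 8 to 9 and 6 to 12 between batch and mutant chemostat, 12 to 18 and 14 to 15 for the mutant chemostat against the wild type labelled aerobic, 1 to 10 and 1 to 8 against the one labelled micro-aerobic, and 31 to 36 for any difference.

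With a replicate block by the mutants' title codes 8 members were higher and 11 lower in the batch, with the wild-type numbers 10 and 11 between the wild-type groups, and with numbers over all libraries 17 and 14, and 8 and 6, in the comparisons with the mutant chemostat. The labels do not say that codes mark a shared culture, and same-coded mutant libraries deviated against each other (correlation -0.245); the crossed pairing, chosen after seeing the data, gave 8 and 11.

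Results that were not called changed sign in 11 cases, and the cause was not tested. For the mutant chemostat against the wild type labelled micro-aerobic, OPAR_000625 was 0.047 with upper quartile scaling and -0.13 to 0.076 when 1 library was left out, OPAR_003395 -0.16 to 0.76 and AVT4 -0.21 to 0.044. Against the wild type labelled aerobic, AGP2 was 0.16 with upper quartile scaling and -0.098 to 0.040 with 1 library left out, and OPAR_003395 -0.39 to 0.50. For batch against chemostat, UGA4 ran from -0.32 to 0.21, OPAR_004508 from -0.38 to 0.20 and OPAR_003395 from -0.043 to 0.86.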
